A study of Mus musculus with 3 samples.

Results

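The 45 genes described here are the members of a cell cycle list, 20 that are highest while DNA is copied (S) and 25 that are highest from late DNA copying through division (G2/M). They were found by symbol among the 32285 genes of the count tables, and all 45 were present. Their levels were read in 5 types of tumor-infiltrating lymphocyte (TIL), picked cell by cell from raw UMIs (unique molecular identifiers, 1 per captured transcript). NK cells had at least 1 Ncr1 UMI and at most 1 Cd3e UMI, and CD8 T cells had at least 2 Cd3e UMIs with Cd8a and Cd8b1. CD4 T cells had at least 2 Cd3e UMIs with Cd4 and no Foxp3, regulatory T cells (Tregs) at least 2 Cd3e UMIs with Foxp3, and γδ T cells at least 1 Cd3e UMI with Cd163l1. Of 31943 cells kept, 22119 fell in at least 1 of these gates.

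The cells came from subcutaneous MC38-Ova tumors, a mouse colon carcinoma line carrying ovalbumin, grown in WT C57BL/6 Kaede mice, whose cells all carry a green protein that violet light turns red for good. Tumors were lit on day 13 and taken on day 15, so Kaede-green (KG+) TILs had arrived within the last 48 h and Kaede-red (KR+) TILs had stayed longer. There were 2 KG+ libraries (called green 1 and green 2 below) and 1 KR+ library (red), all from tumors of the isotype control arm, sorted as live CD45+ TER119- cells with CD11b+ NK1.1- myeloid cells left out. Neither the labels nor the methods say how many mice went into each library, and with 1 KR+ library the color, the time in the tumor and the library cannot be told apart.

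A dividing cell first loads the Mcm2-7 helicase onto its DNA, then makes nucleotides and copies the genome with the sliding clamp Pcna, and E2F factors switch on most genes of that step. Later the mitotic cyclins and Cdk1, the chromosomal passenger and kinetochore proteins and the spindle motors are made. Their genes often carry CHR and CCAAT elements and are switched on largely through B-Myb and FoxM1. Activated CD8 T cells divide quickly after antigen encounter, tumor Tregs are known as a dividing pool, and many tissue γδ T and NK cells rest. These points are background and not results of these libraries.

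The promoters show this split between the lists. RefSeq promoter windows (GRCm38.p6, 250 bases before to 50 bases after the start) were held for 37 of the 45 members, 17 S and 20 G2/M. A CHR element (TTTGAA or TTCGAA, on either strand) was present in 16 of 20 G2/M windows (80%) and in 3 of 17 S windows (17.6%), against 21.7% of the windows of 27025 genes. An E2F element (TTTCGCGC, TTTGGCGC, TTTCCCGC or GGCGGGAA, on either strand) was present in 9 of 17 S windows (52.9%), in 1 of 20 G2/M windows (5.0%) and in 4.0% of all genes. CCAAT was found in 85.0% of G2/M, 70.6% of S and 41.1% of all genes. TTCGAA reads the same on both strands, TTTCCCGC and GGCGGGAA overlap when read on opposite strands, and a match is a description of letters, not a bound site. The 5 windows that follow were chosen because their genes set the pattern of the results: Ccnb2 and Cdk1 are G2/M members tied to dividing cells, Mcm5 is an S member, and Slbp and Kif23 are members whose levels hardly differed between CD8 T and NK cells. Matches are in capitals.
Ccnb2: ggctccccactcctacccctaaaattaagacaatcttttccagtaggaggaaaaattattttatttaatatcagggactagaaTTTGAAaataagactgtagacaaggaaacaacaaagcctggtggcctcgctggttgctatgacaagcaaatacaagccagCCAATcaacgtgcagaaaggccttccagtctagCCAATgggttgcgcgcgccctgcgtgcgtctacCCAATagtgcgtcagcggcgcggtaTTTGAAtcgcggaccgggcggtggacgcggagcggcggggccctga
Cdk1: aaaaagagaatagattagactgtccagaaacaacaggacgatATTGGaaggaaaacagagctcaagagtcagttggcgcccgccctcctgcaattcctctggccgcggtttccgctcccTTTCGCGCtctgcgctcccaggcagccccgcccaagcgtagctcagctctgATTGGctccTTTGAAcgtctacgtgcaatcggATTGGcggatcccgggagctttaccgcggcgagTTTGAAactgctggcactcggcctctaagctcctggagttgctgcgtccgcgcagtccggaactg
Kif23: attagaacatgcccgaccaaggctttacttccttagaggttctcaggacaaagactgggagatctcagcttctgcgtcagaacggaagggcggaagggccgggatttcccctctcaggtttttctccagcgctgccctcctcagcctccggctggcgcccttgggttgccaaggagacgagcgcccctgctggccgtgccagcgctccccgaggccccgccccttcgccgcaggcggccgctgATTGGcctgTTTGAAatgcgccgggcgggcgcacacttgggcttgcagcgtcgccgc
Mcm5: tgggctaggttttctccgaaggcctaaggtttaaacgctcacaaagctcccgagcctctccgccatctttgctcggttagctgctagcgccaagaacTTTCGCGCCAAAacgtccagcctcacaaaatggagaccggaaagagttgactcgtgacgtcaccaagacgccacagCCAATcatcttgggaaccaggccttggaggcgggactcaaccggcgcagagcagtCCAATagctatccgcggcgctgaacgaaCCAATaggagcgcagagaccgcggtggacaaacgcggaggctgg
Slbp: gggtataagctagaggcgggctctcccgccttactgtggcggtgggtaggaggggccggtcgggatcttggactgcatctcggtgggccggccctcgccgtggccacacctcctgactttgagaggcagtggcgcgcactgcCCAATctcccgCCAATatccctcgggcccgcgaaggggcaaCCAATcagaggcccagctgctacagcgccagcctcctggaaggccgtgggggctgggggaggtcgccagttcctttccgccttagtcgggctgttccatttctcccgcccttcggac
They lie at chr9:70421505-70421804, minus strand (Ccnb2), chr10:69352863-69353162, minus strand (Cdk1), chr9:61946750-61947049, minus strand (Kif23), chr8:75109259-75109558, plus strand (Mcm5) and chr5:33652525-33652824, minus strand (Slbp). Ccnb2 held 3 CCAAT boxes whose first bases lie at -87, -54 and -21 and CHR elements at -167 and 5, counted from the start with no position 0. Cdk1 held CHR elements at -71 and -15 and the only E2F match among the G2/M windows, at -131. Mcm5 held overlapping E2F matches at -153 and -149 and no CHR. Slbp held CCAAT boxes only, and Kif23 held a CHR at 3 and a CCAAT box at -7.

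Each deposited library held 10498 to 12327 cells and 87193225 to 175848894 UMIs, and the red library was the deepest, with a median of 12076 UMIs in its kept cells against 6628 and 8512.5 in green 1 and green 2. Pairs of libraries shared 20 to 36 cell barcodes. The NK, Treg and γδ marker lists followed the names: the 6 NK markers summed to at least 3723 CPM (a gene's UMIs per 1000000 UMIs of the summed cells) in NK cells and at most 1101 elsewhere, the 5 Treg markers to at least 5298 in Tregs and at most 2500 elsewhere, and the 7 γδ markers to at least 1968 in γδ T cells and at most 159.7 elsewhere. The CD4 T and CD8 T marker lists did not separate the CD4 T cells: the CD8 T list summed to 1054, 1233 and 1723 CPM in them (green 1, green 2 and red) and the CD4 T list to 1698, 1481 and 1610. In red the CD8 T list was the higher one. Trac counts in both of these lists. The CD4 T list was higher in Tregs (1999, 1895 and 2499) than in CD4 T cells in every library, through Trac and Icos. Cd40lg went the other way, with 62.6, 51.6 and 25.7 CPM in CD4 T cells and 5.53, 3.35 and 3.13 in Tregs. So did Cd4, which the CD4 T gate itself uses. B cell, myeloid, mast and epithelial lists stayed at or under 72.6 CPM in every type. However, 941 cells met more than 1 gate, most often CD8 T with Treg (467) or with CD4 T (278), and had a median of 15695 UMIs against 9581.5 in cells of 1 gate. They made up 33.2% of red CD4 T cells and 19.7% to 34.2% of γδ T cells. These shares count cells, while the sums below count UMIs. The 102 red cells in both the CD8 T and the CD4 T gate had a median of 22241 UMIs, against 7998 over all red CD4 T cells. Such a cell entered the sums of each of its types. Results are therefore also given without cells of more than 1 gate. Whether they are doublets was not tested.

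Tregs had the largest share of cells with high G2/M sums in both green libraries, and CD8 T cells had it in red. Differences between the types did not pass the test given below. A cell was counted when its summed G2/M members passed 5 per 10000 UMIs, which is not a call of its cycle phase. In Tregs the shares were 21.9%, 24.9% and 21% in green 1, green 2 and red, and in CD8 T cells 13.3%, 18.4% and 29.1%. NK cells had 6.1%, 10.2% and 22.6%, CD4 T cells 7.81%, 16.3% and 21.4%, and γδ T cells 7.87%, 8.81% and 15.8%. The red value was the highest of the 3 in every type but Tregs, where it was the lowest. This did not hold for CD4 T cells once cells of more than 1 gate were left out. Their shares were then 6.55%, 16.6% and 13.9%. B cells, taken as a type with little division, had 6.00% of 200 cells in green 1 and 10.0% of 100 cells in green 2, so the green NK and γδ T shares were at the level of this reference, which had fewer UMIs per cell (medians 4013.5 and 4840). The exact permutation test of type labels within libraries, two-sided, gave p = 0.0583 for differences between the 5 types in this share. The same exact permutation test gave p = 0.0333 without the red library, 0.283 without green 1 and 0.35 without green 2.

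**Figure D1:**
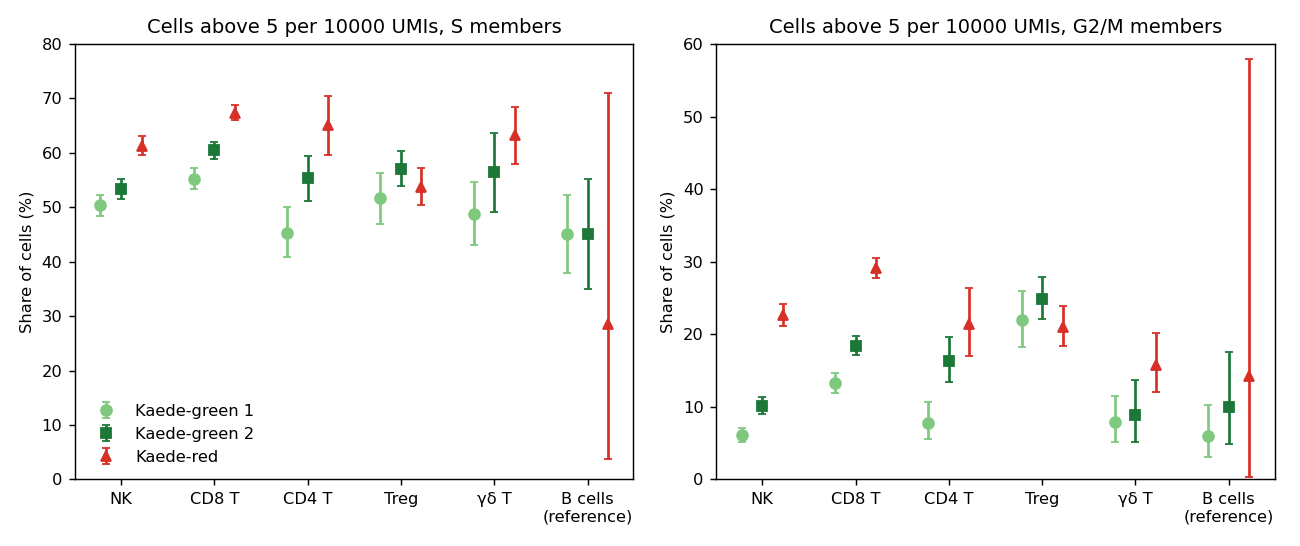
Share of cells (percent) above 5 per 10000 UMIs of the S members (left) and the G2/M members (right), by type, with the 3 libraries as points and exact (Clopper-Pearson) 95% intervals for counting error. On the right the red NK, CD8 T, CD4 T and γδ T points lie above both green points, while the red Treg point (21.0%) lies below both.

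The S share did not separate the types. It ran from 45.4% to 67.4% over the 15 values and was 45% in both green B cell groups, and the limit of 5 per 10000 lay in the middle of the S sums: between 15.8% and 25.2% of the cells of a type had a sum of 4 to 6. The share above either limit therefore followed the S sums, from 47.5% to 70.0%, with exact permutation p = 0.254 for differences between types (0.232 for S alone). At a limit of 20 per 10000 G2/M UMIs, chosen after the data were seen, 13.3%, 12.8% and 9.99% of Tregs were above it, 5.1%, 8.03% and 16.4% of CD8 T cells, 0.92%, 2.8% and 10.5% of NK cells, 2.53%, 4.79% and 7.67% of CD4 T cells and 1.64%, 2.59% and 4.48% of γδ T cells. The order in each color was the same at both limits for the highest type: Tregs in green 1 and green 2, CD8 T cells in red. Cells above 5 per 10000 G2/M UMIs held more UMIs in most groups, with medians of 21682 against 8728.5 in green 1 CD8 T cells and 30644 against 14298 in red NK cells. After each cell was thinned to 3000 UMIs the G2/M shares were 26.8%, 29% and 24.1% in Tregs and 14.9%, 22% and 32.1% in CD8 T cells (exact permutation p = 0.0499). With the gates also set on thinned cells the exact permutation p was 0.187. Without cells of more than 1 gate, green γδ T cells had G2/M shares of 6.31% and 5.51%.

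The summed levels gave the same picture on a finer scale. Summing the UMIs of all cells of a type in a library, the 25 G2/M members made up 1495, 1548 and 1321 CPM in Tregs, 879, 1169 and 1943 in CD8 T cells, 552, 878 and 1381 in CD4 T cells, 482, 709.9 and 1095 in γδ T cells and 271, 566 and 1253 in NK cells (green 1, green 2 and red, the order used throughout). The highest type stood 5.51 times above the lowest in green 1, 2.73 times in green 2 and 1.77 times in red. With cells of more than 1 gate left out these ratios were 8.43, 6.49 and 2.70. γδ T cells were then the lowest type in both green libraries and CD4 T cells in red. The 20 S members made up 1551, 1578 and 1212 CPM in Tregs, 1205, 1348 and 1675 in CD8 T cells, 854, 1001 and 1426 in CD4 T cells, 713, 1038 and 1198 in γδ T cells and 711, 898 and 1424 in NK cells, with a ratio of highest to lowest type of 2.18, 1.76 and 1.40. Tregs were the highest type for 25 of 25 G2/M members in green 1 and 24 in green 2, and for 19 and 17 of 20 S members. In red, CD8 T cells were the highest for 22 of 25 G2/M and 14 of 20 S members, and Tregs for 1 and 0. The highest type was not counted over all genes. A sum over cells does not tell more cycling cells from more cycle transcripts in each of them.

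The balance of G2/M to S UMIs differed between the types. The ratio was 0.964, 0.981 and 1.09 in Tregs (1.01 ± 0.07, mean ± SD, n = 3 libraries), 0.729, 0.867 and 1.16 in CD8 T cells (0.92 ± 0.22), 0.646, 0.878 and 0.968 in CD4 T cells (0.83 ± 0.17), 0.677, 0.684 and 0.914 in γδ T cells (0.76 ± 0.13) and 0.382, 0.631 and 0.88 in NK cells (0.63 ± 0.25). The red value was the highest of the 3 in every type, Tregs included. These means and SDs pool both colors, so the SD is not a spread of replicates alone. The types differed in the exact permutation test within libraries (p = 0.00194, two-sided, where 14400 arrangements allow 6.94e-05). That test reads the variance of the type means and does not test a ranking. The exact permutation test was not passed without green 1 (p = 0.05) or green 2 (p = 0.0667). Without cells of more than 1 gate the γδ T ratio was 0.329, 0.342 and 0.833, with G2/M sums of 188, 253 and 778 CPM. The same exact permutation test then gave p = 0.000556 for differences between the types. The green γδ T cells of 1 gate thus lay below the green NK cells in G2/M sum in both libraries.

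**Figure D2:**
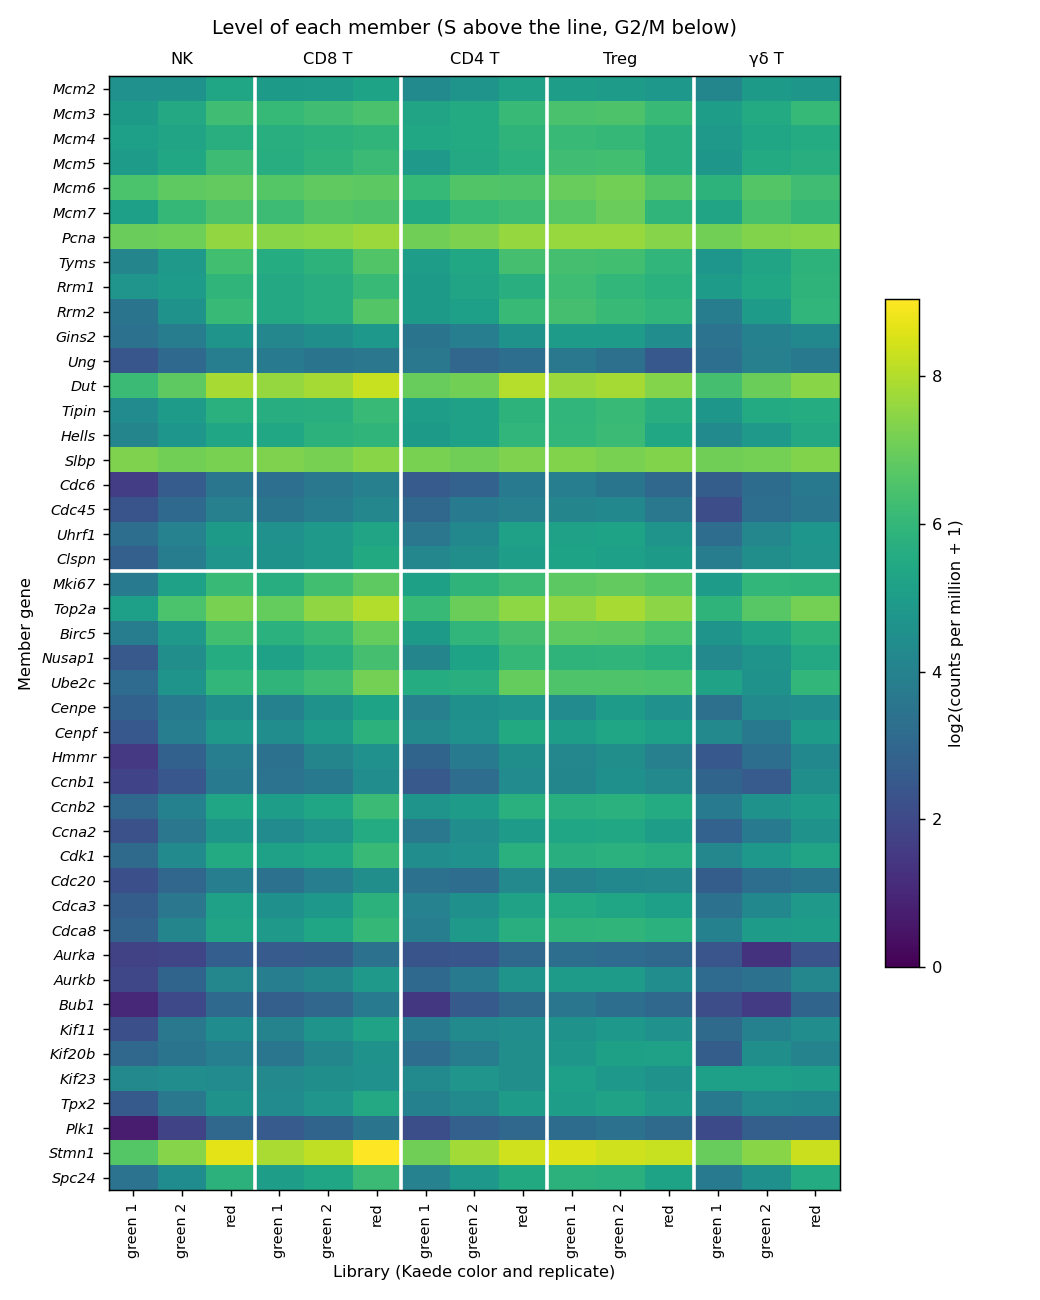
Level of each of the 45 members (rows, 20 S above the white line and 25 G2/M below) as log2(CPM + 1) in the summed cells of each type and library (columns). Slbp, Pcna and Mcm6 are bright in every column, most G2/M rows are darkest in green NK cells, and Kif23 is nearly even across the columns, from 18.2 to 33.6 CPM.

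Among the S members, the helicase genes and the clamp were expressed in every type with modest differences. The ranges that follow are CPM in the order green 1, green 2 and red. Mcm5, a subunit of the Mcm2-7 helicase, had 30.4, 41.2 and 71.6 in NK cells, 48.6, 58.3 and 70.5 in CD8 T cells, 28.4, 43 and 53.3 in CD4 T cells, 75.9, 77 and 49.9 in Tregs and 26.7, 45.3 and 50.1 in γδ T cells. Mcm2 of the same ring had 22.6, 23.2 and 39 in NK cells, 29.6, 30.8 and 37.1 in CD8 T cells, 18.5, 24.6 and 35.1 in CD4 T cells, 31.9, 30.9 and 27.5 in Tregs and 16.8, 29.5 and 26.7 in γδ T cells. For both, green 1 γδ T cells were lowest, and red was the highest of the 3 libraries in NK, CD8 T and CD4 T cells. The highest of all 15 values was in green 2 Tregs for Mcm5 and in red NK cells for Mcm2. Mcm4 had 33.6, 37.9 and 50.2 in NK cells, 49.8, 54.9 and 59.5 in CD8 T cells, 41.8, 44.5 and 58.1 in CD4 T cells, 67.9, 64.5 and 51.1 in Tregs and 27.8, 40.2 and 46.7 in γδ T cells. Mcm6 had 88.8, 111 and 116 in NK cells, 101, 114 and 106 in CD8 T cells, 65.6, 94.8 and 91.7 in CD4 T cells, 122, 139 and 97.3 in Tregs and 56.4, 97.6 and 76.6 in γδ T cells. For Mcm6, all CD4 T and γδ T values lay below all CD8 T values, while the NK and CD8 T values overlapped. For Mcm4, all γδ T values lay below all CD8 T values. Pcna, the sliding clamp of the DNA polymerases, had 123, 130.5 and 190.2 in NK cells, 171, 178 and 206 in CD8 T cells, 135, 153 and 192 in CD4 T cells, 198, 196 and 169 in Tregs and 136, 159 and 171 in γδ T cells. Over the 15 sums Pcna ran from 123 to 206, and only Slbp had a narrower relative range. Mcm3 ran from 29.6 to 90.05, Mcm7 from 33.6 to 126, and the loader Cdc6, the helicase activator Cdc45 and the GINS subunit Gins2 from 2.15 to 14.3, 3.43 to 17.4 and 9.42 to 30.7.

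Of the genes of nucleotide supply, Rrm2 and Tyms varied more than the Mcm2, Mcm4, Mcm5 and Mcm6 genes. Rrm2, the regulated subunit of ribonucleotide reductase, had 10.2, 23.4 and 67.2 in NK cells, 42.5, 48.8 and 98 in CD8 T cells, 29.4, 33.1 and 68.3 in CD4 T cells, 82.4, 68.7 and 61.4 in Tregs and 13.3, 31 and 61.2 in γδ T cells. Tyms, thymidylate synthase, had 16.5, 28.5 and 77.5 in NK cells, 47.6, 56.8 and 93.9 in CD8 T cells, 32.7, 40.9 and 81 in CD4 T cells, 80.8, 78.6 and 60.7 in Tregs and 25.5, 38.1 and 56 in γδ T cells. Dut, which clears dUTP, had 70.9, 109 and 229.9 in NK cells, 195, 225 and 313 in CD8 T cells, 120.1, 136 and 257 in CD4 T cells, 205, 222 and 163 in Tregs and 82.8, 128 and 170.3 in γδ T cells. In these 3 genes red CD8 T cells were highest of all 15 sums, green 1 NK cells were lowest, and in Tregs the red value was below both green values. Ung, the uracil DNA glycosylase, was low throughout, with 4.31, 7.55 and 13.6 in NK cells, 12.2, 10.2 and 11.1 in CD8 T cells, 11.2, 6.95 and 8.72 in CD4 T cells, 11.4, 9.09 and 4.64 in Tregs and 8.77, 14.2 and 11.7 in γδ T cells, and kept no order between types. Rrm1, the other reductase subunit, ran from 25.5 to 73.7.

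Fork and chromatin genes followed the nucleotide genes, and the histone mRNA factor did not. Uhrf1, which carries DNA methylation through replication, had 8.52, 15.2 and 29.3 in NK cells, 22.8, 28.2 and 37.7 in CD8 T cells, 10.9, 17.7 and 34.6 in CD4 T cells, 35, 36.7 and 24.4 in Tregs and 8.39, 17.3 and 25.8 in γδ T cells. Clspn, a checkpoint adaptor at the fork, had 5.81, 13 and 25.1 in NK cells, 23.1, 28.1 and 43.9 in CD8 T cells, 17, 20.8 and 31.9 in CD4 T cells, 36.5, 33.3 and 29.6 in Tregs and 13, 20.9 and 25.5 in γδ T cells. Both were lowest in green 1 NK or γδ T cells and highest in red CD8 T cells. Slbp, the stem-loop binding protein of histone mRNAs, had 155, 138 and 149 in NK cells, 156, 146 and 169.6 in CD8 T cells, 148, 136 and 154 in CD4 T cells, 157, 147 and 159 in Tregs and 133, 140.4 and 158 in γδ T cells. Its 15 values overlapped between all 5 types, and B cells had 131.5 and 136 CPM in the green libraries. Tipin, a fork protection factor, ran from 19.7 to 68.5 and the helicase Hells from 16.3 to 69.8.

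The mitotic cyclins and Cdk1 were lowest in green 1 NK cells. Ccnb1, cyclin B1, had 2.56, 4.49 and 12 in NK cells, 9.75, 11.5 and 20.8 in CD8 T cells, 4.81, 8.44 and 19.7 in CD4 T cells, 16.6, 22 and 17.9 in Tregs and 6.48, 5.09 and 21.5 in γδ T cells. Ccnb2, cyclin B2, had 7.37, 14.8 and 39.7 in NK cells, 32.6, 38.8 and 70.6 in CD8 T cells, 24.8, 30.9 and 52.8 in CD4 T cells, 50.8, 53.7 and 45.9 in Tregs and 12.6, 23.9 and 31.1 in γδ T cells. Ccna2, cyclin A2, had 3.76, 11 and 26.7 in NK cells, 19.3, 25.1 and 46.7 in CD8 T cells, 11.2, 20.3 and 31.2 in CD4 T cells, 38.8, 41.3 and 32.4 in Tregs and 6.1, 12.2 and 23.7 in γδ T cells. For these cyclins each red value was above both green values in NK, CD8 T, CD4 T and γδ T cells. Ccnb2 and Ccna2 were highest in red CD8 T cells and Ccnb1 in green 2 Tregs. Cdk1, the mitotic kinase they activate, had 7.67, 18.7 and 45.2 in NK cells, 35.4, 40.1 and 67.9 in CD8 T cells, 20.5, 22.7 and 51.8 in CD4 T cells, 50.5, 54 and 48.5 in Tregs and 17.2, 27 and 37.5 in γδ T cells. The genes of protein destruction at mitotic exit did the same in NK and CD8 T cells. Ube2c, the ubiquitin-conjugating enzyme of the anaphase-promoting complex, had 7.87, 24.6 and 62.2 in NK cells, 58.6, 73.7 and 141 in CD8 T cells, 47.4, 51.6 and 117 in CD4 T cells, 92.8, 91.8 and 88 in Tregs and 35.8, 23.4 and 62.4 in γδ T cells. Cdc20, its activator, had 3.66, 6.98 and 13.7 in NK cells, 9.61, 13.5 and 20.9 in CD8 T cells, 9.38, 8.44 and 18.2 in CD4 T cells, 15.3, 17.7 and 17.9 in Tregs and 5.34, 8.65 and 10.5 in γδ T cells. Ube2c had the widest relative range of the 45 members over the 15 sums. In Tregs the red value was below both green values for Ube2c and above both for Cdc20. Cdca3, a trigger of mitotic entry, ran from 5.31 to 54.3.

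Chromosome and passenger genes were highest in green Tregs or red CD8 T cells. Top2a, the topoisomerase that untangles sister chromatids, had 33.6, 89.1 and 147 in NK cells, 119, 184 and 251 in CD8 T cells, 66.4, 128 and 179.7 in CD4 T cells, 184, 228 and 177 in Tregs and 57.6, 102 and 139 in γδ T cells. Mki67, the chromosome coat protein known as Ki-67, had 12.1, 35.2 and 69.1 in NK cells, 48, 78 and 111 in CD8 T cells, 34.2, 57.7 and 72.5 in CD4 T cells, 108, 114 and 101 in Tregs and 30.9, 62.6 and 59.6 in γδ T cells. Mki67 reached its highest value in green 2 Tregs and Top2a in red CD8 T cells. Birc5, survivin of the chromosomal passenger complex, had 12.8, 27.9 and 78.1 in NK cells, 53.4, 66.6 and 118 in CD8 T cells, 29.1, 60.04 and 82.8 in CD4 T cells, 109, 107 and 87.9 in Tregs and 24.4, 35.6 and 56.6 in γδ T cells. Aurkb, the kinase of that complex, had 2.81, 6.59 and 17.2 in NK cells, 13.6, 16.5 and 28.5 in CD8 T cells, 7.6, 12.4 and 24.7 in CD4 T cells, 29.8, 29.8 and 20.6 in Tregs and 8.01, 9.66 and 17.2 in γδ T cells. Cdca8, borealin of that complex, had 6.41, 16.2 and 38.1 in NK cells, 28.2, 38.5 and 63.1 in CD8 T cells, 13.7, 27.8 and 49.6 in CD4 T cells, 57.8, 58.8 and 53.2 in Tregs and 14.9, 30.5 and 31.7 in γδ T cells. The 3 passenger genes had the same order of libraries in NK cells and CD8 T cells, with red on top, and in Tregs red was below both green values. Bub1, a spindle checkpoint kinase, had 1.002, 2.95 and 7.46 in NK cells, 5.67, 6.96 and 12.4 in CD8 T cells, 1.77, 4.96 and 7.73 in CD4 T cells, 10.7, 8.72 and 7.01 in Tregs and 3.43, 2.03 and 6.46 in γδ T cells. Spc24, a subunit of the Ndc80 kinetochore complex, had 9.77, 20.01 and 54.9 in NK cells, 32, 39.6 and 70.2 in CD8 T cells, 15.2, 27.1 and 43.6 in CD4 T cells, 55.3, 52.7 and 36.5 in Tregs and 12.6, 22.4 and 46.1 in γδ T cells. Bub1 was a low gene and Spc24 was lowest in green 1 NK cells. The kinetochore motor Cenpe ran from 5.96 to 37.2 and Cenpf from 4.61 to 55.5.

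Spindle genes held the exceptions. Nusap1, which binds spindle microtubules, had 4.71, 21.1 and 46.8 in NK cells, 35.2, 48.7 and 81.9 in CD8 T cells, 16.2, 37.1 and 64.6 in CD4 T cells, 58.1, 59.3 and 51.8 in Tregs and 17.9, 24.4 and 42.7 in γδ T cells. Plk1, polo-like kinase 1, had 0.601, 2.6 and 7.25 in NK cells, 5.1, 6.53 and 10.2 in CD8 T cells, 3.55, 5.79 and 7.23 in CD4 T cells, 8.05, 9.54 and 7.77 in Tregs and 3.05, 5.59 and 5.53 in γδ T cells. Stmn1, stathmin, which binds tubulin, had 101, 165 and 408 in NK cells, 237, 290.0 and 524 in CD8 T cells, 134, 217 and 331 in CD4 T cells, 372, 336 and 308 in Tregs and 123, 169 and 317 in γδ T cells. These genes followed the list, with green 1 NK cells lowest and red CD8 T cells highest. Kif20b, a kinesin of late mitosis, had 7.22, 10.2 and 13.9 in NK cells, 10.7, 16.7 and 24 in CD8 T cells, 8.36, 12.9 and 20.9 in CD4 T cells, 26.2, 34.3 and 35.3 in Tregs and 5.34, 21.4 and 15.4 in γδ T cells. Its 3 Treg values lay above all 12 values of the other types. Kif23, a kinesin of the central spindle and midbody, had 18.3, 20.4 and 19.3 in NK cells, 18.2, 21.7 and 22.8 in CD8 T cells, 18.5, 25.3 and 20.9 in CD4 T cells, 33.6, 26.9 and 23.2 in Tregs and 33.2, 33.6 and 31.4 in γδ T cells. Kif23 was even across NK, CD8 T and CD4 T cells, and its γδ T values were 31.4 or more while only the green 1 Treg value reached that level among the others. Aurka, the spindle pole kinase, ran from 1.53 to 9.72, its activator Tpx2 from 4.86 to 42.3, the motor Kif11 from 3.56 to 36 and Hmmr from 1.85 to 23.

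Members differed in how far they were confined to cells with high G2/M sums. For each member, cells were split at 5 per 10000 UMIs of the G2/M members without that member, which for an S member placed 17.8% of the gated cells and 30.5% of their UMIs above the limit. The split uses the same cells, so the ratios are a description. Hmmr was 109 times higher in the cells above, Ccna2 75.4 times, Nusap1 70.5 times and Birc5 68.3 times, and 97% of all Ccna2 UMIs lay there. Ccnb2 and Cdk1, whose promoter windows are shown above, had ratios of 51.1 and 25.6. At the other end, Slbp was 1.81 times higher, Mcm6 2.3, Mcm2 2.62, Mcm4 2.83 and Pcna 2.97 times, and Slbp was detected in 68.4% of the cells below. Within the S list, Rrm2 (38.1) and Cdc6 (28.1) lay among the G2/M genes, and within the G2/M list Kif23 (4.44), Kif20b (5.73) and Aurka (6.84) lay among the S genes. Stmn1 had a ratio of 12.9, with 89.6 CPM still in the cells below.

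**Figure D3:**
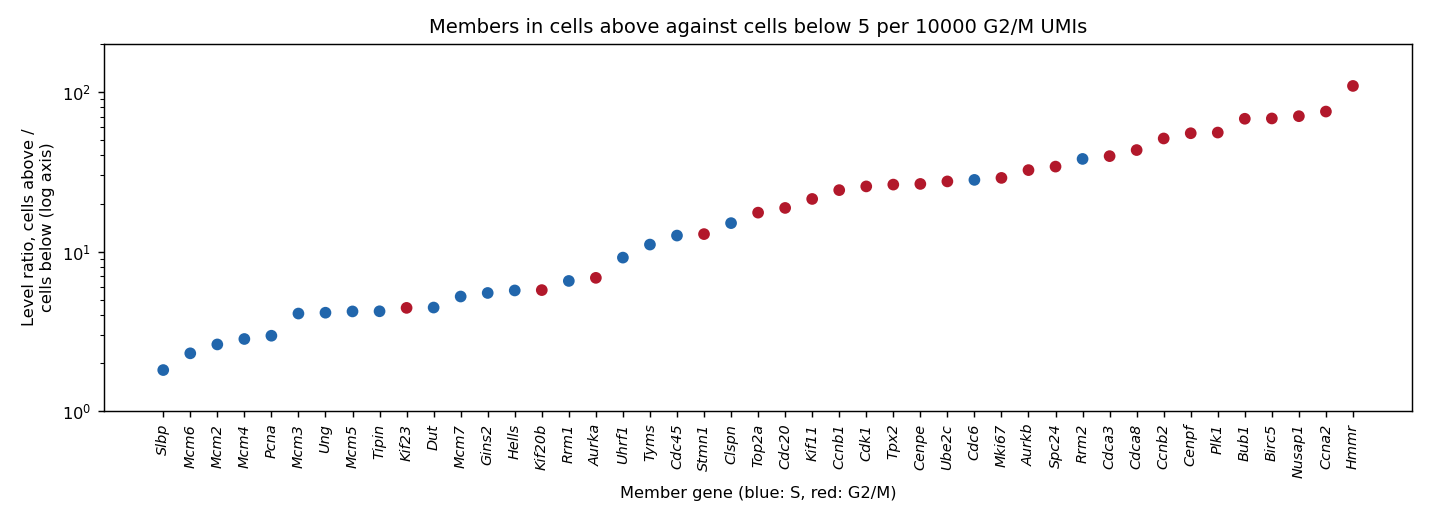
Ratio of each member's level (CPM) in cells above against cells below 5 per 10000 G2/M UMIs, the member itself left out of the sum, on a log axis and sorted, with S members in blue and G2/M members in red. Ratios run from 1.81 for Slbp to 109 for Hmmr, and Kif23 and Kif20b sit among the S members.

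CD8 T cells were compared with NK cells, the types with most cells, which are the adaptive and the innate cytotoxic lymphocytes of these tumors. Most G2/M members were higher in CD8 T cells and few S members passed the test. In edgeR's quasi-likelihood test on the 15 sums with the library as a block (Benjamini-Hochberg over 12281 genes, adjusted p under 0.05), 21 of 25 G2/M members and 4 of 20 S members were higher and none was lower, where 16.3% of all genes tested were higher and 14.1% lower. The S count was thus near the share of all genes. At an unadjusted p under 0.05, 34 of the 45 members would be counted. The median log2 fold change was 1.08 over the G2/M members, 0.53 over the S members and -0.003 over all genes. Ube2c had the largest log2 fold change, 1.60 ± 0.38 (SE, adjusted p = 0.00516), followed by Nusap1 with 1.30 ± 0.40 (SE, adjusted p = 0.0227) and Ccnb2 with 1.24 ± 0.32 (SE, adjusted p = 0.00887). The smallest were Mcm6 with -0.03 ± 0.15 (SE, adjusted p = 0.906), Slbp with 0.03 ± 0.07 (SE, adjusted p = 0.775) and Kif23 with 0.05 ± 0.13 (SE, adjusted p = 0.809), and none of them passed. The S members that passed were Clspn (1.10 ± 0.28), Hells (0.89 ± 0.27), Dut (0.87 ± 0.28) and Tipin (0.71 ± 0.23). The G2/M members that did not pass were Stmn1, Spc24, Plk1 and Kif23. CD8 T levels were above NK levels in 3 of 3 libraries for 24 G2/M and 15 S members. The share of all genes with 1 direction in every library was not counted, here or in the comparisons below. These counts of direction are therefore a description. The calls rest on the pairing and on each library. With no replicate block no member passed, and without the red library 24 G2/M and 18 S members passed. Without green 1, 3 G2/M members (Ube2c, Top2a and Kif11) and 1 S member (Clspn) passed, and without green 2 none did. The shares of all genes under these alternatives are not given, here or in the comparisons of types below. Such counts are therefore a description.

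Cycle regulators outside the list also differed between these types. Of the 38 regulators, 15 were higher in CD8 T cells and 5 lower, against 16.3% and 14.1% of all genes tested. The count of lower regulators was thus near the share of all genes. Of the held-out lists, 18 of 25 G2/M genes and 7 of 21 S genes were higher and 1 S gene, Blm, was lower. Cdkn2a, which encodes the inhibitor p16 and Arf, had 0.15, 0.249 and 0.625 CPM in NK cells and 5.14, 6.02 and 11.5 CPM in CD8 T cells, and the NK values stand on 3, 7 and 39 UMIs. Its log2 fold change was 4.25 ± 0.49 (SE, adjusted p = 1.52e-05). Cdkn2b, the neighbouring inhibitor gene, had 0.451, 0.605 and 0.24 CPM in NK cells and 2.48, 2.02 and 2.72 CPM in CD8 T cells and a log2 fold change of 2.52 ± 0.41 (SE, adjusted p = 0.000344). The NK values of Cdkn2b also stand on few UMIs. In both genes the groups did not overlap, with CD8 T cells higher in every library. The share of all genes without overlap was not counted, so this is a description. Ccnd1, cyclin D1, had 13.3, 26.9 and 17.1 CPM in NK cells and 5.78, 10.5 and 3.46 CPM in CD8 T cells and was lower in CD8 T cells by a log2 fold change of -1.69 ± 0.44 (SE, adjusted p = 0.00915). Foxm1, an activator of G2/M genes, had 0.802, 1.89 and 3.48 CPM in NK cells and 4.54, 5.3 and 8.1 CPM in CD8 T cells and a log2 fold change of 1.47 ± 0.30 (SE, adjusted p = 0.00172). Mybl2, which encodes B-Myb, had 0.651, 2.78 and 5.55 CPM in NK cells and 5.46, 6.55 and 8.9 CPM in CD8 T cells and 1.22 ± 0.37 (SE, adjusted p = 0.0233). Both were lowest in green 1 NK cells. E2f1, an activator of S genes, had 5.31, 9.11 and 19.9 CPM in NK cells and 11.2, 13.8 and 19.1 CPM in CD8 T cells and a log2 fold change of 0.37 ± 0.29 (SE, adjusted p = 0.381). Cdk6, a kinase of the D cyclins, had 88.1, 86.7 and 113 CPM in NK cells and 121, 119 and 195 CPM in CD8 T cells, and Cdk4, the other one, had 61.3, 63.7 and 103 CPM in NK cells and 76.2, 72.4 and 91.3 CPM in CD8 T cells. Cdk6 passed with 0.51 ± 0.09 (SE, adjusted p = 0.000508) and Cdk4 did not with 0.03 ± 0.18 (SE, adjusted p = 0.939). The inhibitor Cdkn1b was higher (0.46 ± 0.13 SE, adjusted p = 0.0133) and the p53 target Cdkn1a lower (-0.64 ± 0.21 SE, adjusted p = 0.0312) in CD8 T cells, and Ccnd2 (-0.22 ± 0.10) and Ccnd3 (-0.08 ± 0.11) did not pass.

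**Figure D4:**
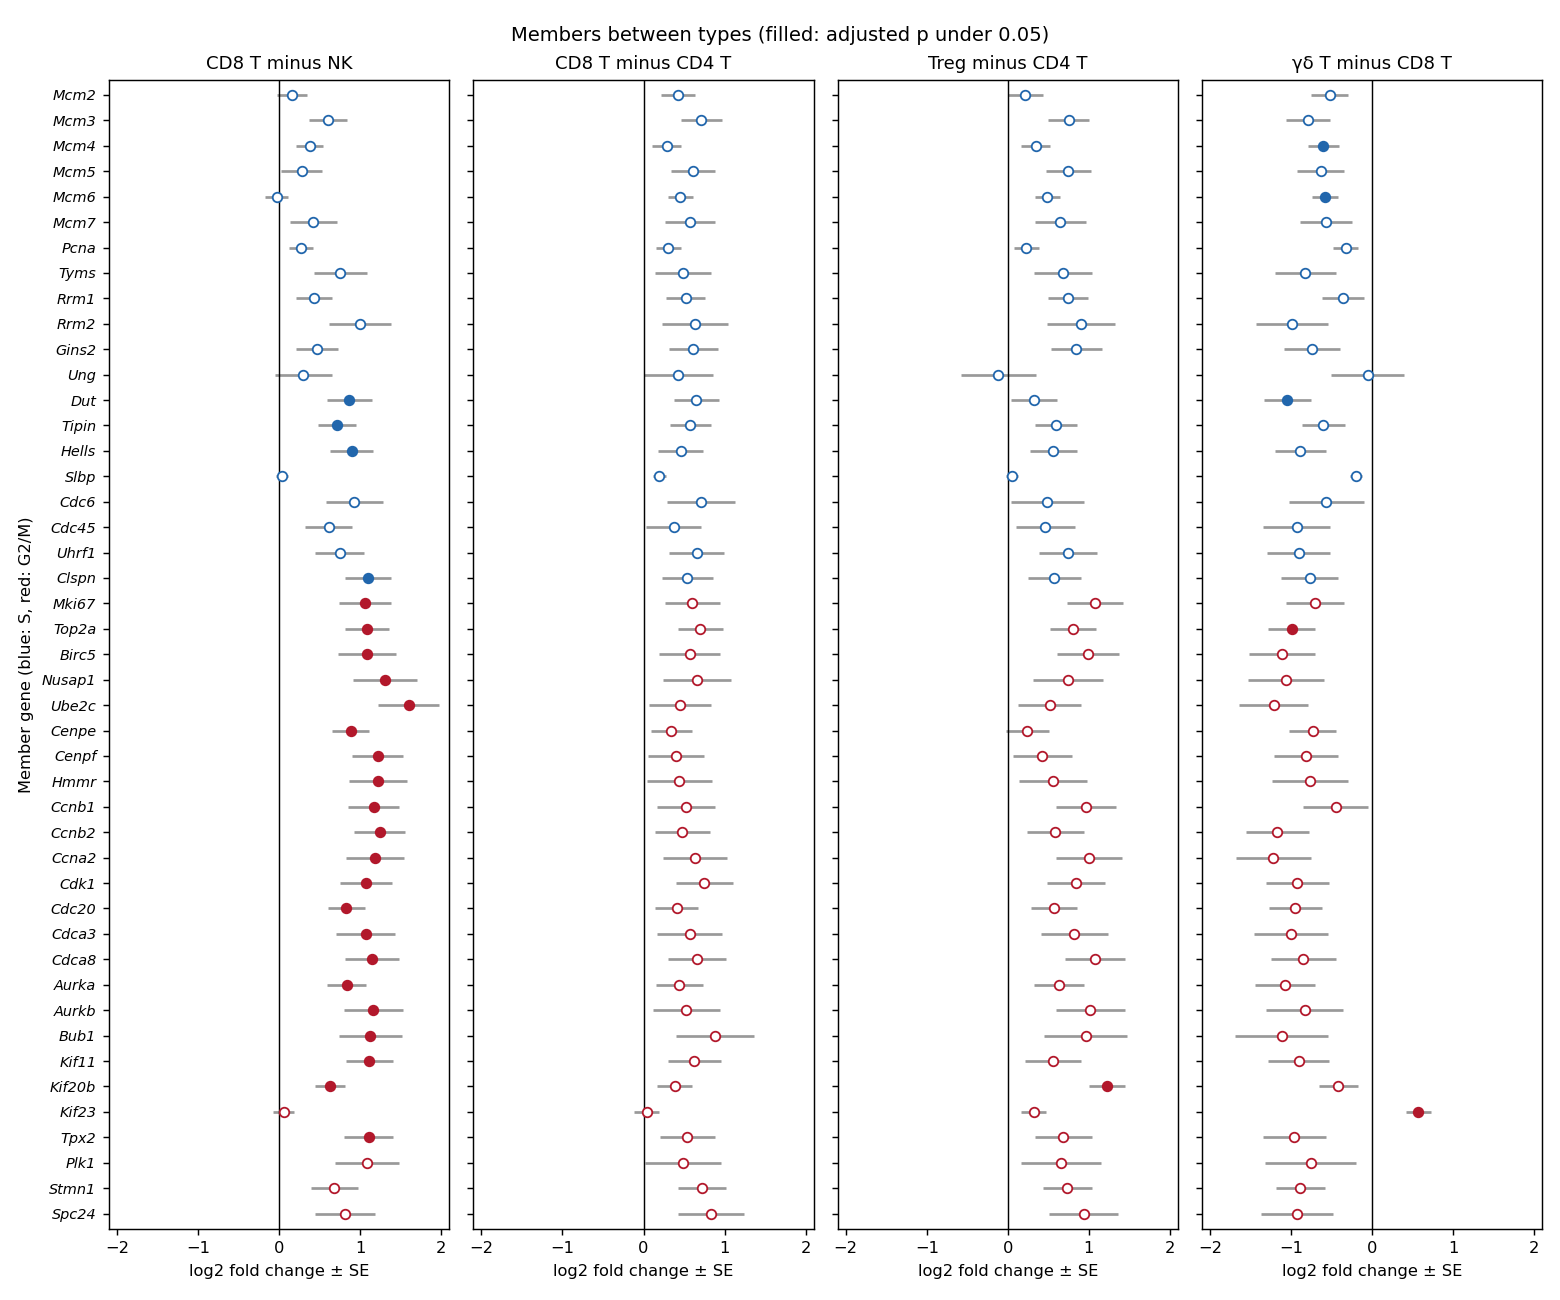
Log2 fold change with its SE for each of the 45 members in 4 comparisons of types, from edgeR on 15 sums with the library as a block. Filled points have an adjusted p under 0.05, S members are blue and G2/M members red. In the first panel 21 red and 4 blue points are filled, in the second none, in the third Kif20b, and in the fourth Dut, Mcm4, Mcm6, Top2a and, on the other side of 0, Kif23.

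CD8 T against CD4 T cells gave no call. None of the 45 members passed (edgeR, adjusted p under 0.05), 8 had an unadjusted p under 0.05, and of all genes 1.32% were higher and 3.88% lower (5.2% in either direction). DESeq2's Wald test called none either. All 45 fitted values were above 0, with medians of 0.54 over G2/M and 0.53 over S members, against 0.01 over all genes. CD8 T levels were above CD4 T levels in 3 of 3 libraries for 24 of 25 G2/M and 19 of 20 S members. The largest values were Bub1 with 0.88 ± 0.48 (SE, adjusted p = 0.285), Spc24 with 0.83 ± 0.41 (SE, adjusted p = 0.236) and Cdk1 with 0.75 ± 0.35 (SE, adjusted p = 0.216), and the smallest Kif23 with 0.04 ± 0.15 (SE, adjusted p = 0.915), Slbp with 0.20 ± 0.07 (SE, adjusted p = 0.142) and Mcm4 with 0.29 ± 0.17 (SE, adjusted p = 0.337). Among the regulators, Cdkn1b (116, 116 and 92.5 CPM in CD8 T cells and 191, 182 and 127 CPM in CD4 T cells, -0.52 ± 0.13 SE, adjusted p = 0.0332) and Rb1 (14.2, 16.2 and 15 CPM in CD8 T cells and 23.8, 22.3 and 21.4 CPM in CD4 T cells, -0.48 ± 0.12 SE, adjusted p = 0.0298), brakes on entry into the cycle, were lower in CD8 T cells and Cdk6 (0.35 ± 0.09 SE, adjusted p = 0.0412) was higher. No gene of the held-out lists passed, and the counts of regulators were near the shares of all genes. The count of members depends on the cells and libraries: it was 12 (9 S and 3 G2/M, all higher) without cells of more than 1 gate, which were 13.1%, 22.9% and 33.2% of the CD4 T cells, and 19 (14 and 5) without the red library.

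Tregs were compared with the other CD4 T cells, the lineage they belong to. Kif20b alone passed among the 45 members. Its log2 fold change was 1.22 ± 0.22 (SE, adjusted p = 0.00279), and Tregs were higher in 3 of 3 libraries. The call was lost with no replicate block (adjusted p = 0.125), without green 1 (adjusted p = 0.0562) and with gates on thinned cells (adjusted p = 0.371). Of all genes 6.75% were higher and 7.09% lower, so the count of members was below the share of all genes. An unadjusted p under 0.05 was seen for 18 members. The next largest were Mki67 with 1.08 ± 0.34 (SE, adjusted p = 0.0537) and Cdca8 with 1.07 ± 0.37 (SE, adjusted p = 0.0725), and the smallest were Ung with -0.12 ± 0.46 (SE, adjusted p = 0.902), Slbp with 0.06 ± 0.08 (SE, adjusted p = 0.676) and Mcm2 with 0.21 ± 0.22 (SE, adjusted p = 0.555). The direction differed between libraries. In each green library Treg levels were above CD4 T levels for 25 of 25 G2/M and 20 of 20 S members, and in red for 9 and 3. The red direction depended on the cells kept. It turned when cells of more than 1 gate were left out. Red Treg levels lay above red CD4 T levels for 23 of 25 G2/M and 19 of 20 S members. The G2/M sums were 1319 CPM in Tregs and 734 CPM in CD4 T cells, and the S sums 1246 and 819 CPM. Without the cells of highest doublet scores, red Tregs stayed below, with higher levels for 2 G2/M and 0 S members. With no upper limit on genes per cell the red difference (Treg minus CD4 T) was 69.04 CPM for the G2/M sum and -149 CPM for the S sum. With each cell thinned to 3000 UMIs the red difference was 43.02 and -7.12 CPM. Without the red library, 21 G2/M and 18 S members passed, all higher, and without green 1 none did. Without cells of more than 1 gate, 11 and 12 passed, all higher. Regulators that passed were Myc (33.5, 19 and 9.09 CPM in Tregs and 10.6, 8.1 and 3.74 CPM in CD4 T cells, 1.34 ± 0.27 SE, adjusted p = 0.00517), the inhibitor Cdkn2c (35, 32.1 and 36.3 CPM in Tregs and 15.2, 19.8 and 23.9 CPM in CD4 T cells, 0.79 ± 0.17 SE, adjusted p = 0.00801), E2f3 and Cdk6, all higher, and the antiproliferative gene Btg2 (242, 183 and 218 CPM in Tregs and 671, 467 and 363 CPM in CD4 T cells, -1.23 ± 0.15 SE, adjusted p = 0.000156), lower. Cdkn2c and Btg2 did not overlap between the types, which was not counted over all genes. Ccnd2, cyclin D2, had 568, 547 and 505 CPM in Tregs and 511, 472 and 361 CPM in CD4 T cells (0.25 ± 0.10 SE, adjusted p = 0.105). Of the held-out lists, 2 of 25 G2/M genes (Tmpo and Smc4) and 1 of 21 S genes (Pold3) were higher, which was near the share of all genes. Of the 38 regulators, 4 were higher and 1 lower, also near the shares of all genes.

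γδ T cells were compared with CD8 T cells, the most numerous conventional T cells. The fitted value was below 0 for 44 of 45 members, 4 of which passed, and Kif23 passed in the other direction. Dut (-1.05 ± 0.29 SE, adjusted p = 0.0225), Mcm4 (-0.60 ± 0.19 SE, adjusted p = 0.0404), Mcm6 (-0.58 ± 0.16 SE, adjusted p = 0.0221) and Top2a (-0.99 ± 0.29 SE, adjusted p = 0.0294) were lower, and Kif23 was higher with 0.57 ± 0.16 (SE, adjusted p = 0.0218). Of all genes 10.8% were higher and 8.17% lower, so the count of lower members was near the share of all genes. At an unadjusted p under 0.05, 30 members would be counted. The medians were -0.92 over G2/M and -0.62 over S members, against -0.04 over all genes, and γδ T levels were below CD8 T levels in 3 of 3 libraries for 22 and 19 members. Ccna2, Ube2c and Ccnb2 had the lowest values, -1.22 ± 0.46 (SE, adjusted p = 0.0828), -1.21 ± 0.42 (SE, adjusted p = 0.0622) and -1.17 ± 0.39 (SE, adjusted p = 0.0516), and after Kif23 the highest were Ung with -0.06 ± 0.45 (SE, adjusted p = 0.953) and Slbp with -0.20 ± 0.08 (SE, adjusted p = 0.0795). Without cells of more than 1 gate, 39 members passed, 38 of them lower. Without the red library 22 passed, without green 1 Ube2c alone passed, and without green 2 none. Kif23 stayed higher by 0.49 to 1.12 on the log2 scale under the 12 alternatives and lost its call without green 1 or without green 2 (adjusted p = 0.0846 and 0.150). Of the 38 regulators 6 were higher in γδ T cells: Cdkn1a (184, 137 and 214 CPM in γδ T cells and 76.3, 84.9 and 104 CPM in CD8 T cells, 0.93 ± 0.21 SE, adjusted p = 0.00779), Btg1, Btg2, Tob1, Rb1 and Cdkn2d, while Cdk6 (63.7, 71.2 and 109.8 CPM in γδ T cells and 121, 119 and 195 CPM in CD8 T cells, -0.91 ± 0.10 SE, adjusted p = 2.24e-05) and E2f4 were lower. These counts of regulators were near the shares of all genes, 10.8% higher and 8.17% lower. Cdkn1a is known to inhibit cyclin-dependent kinases, and Btg1, Btg2 and Tob1 are known as antiproliferative genes, which is background. The inhibitors Cdkn1b (0.27 ± 0.13 SE, adjusted p = 0.175), Cdkn1c and Cdkn2c did not pass. Of the held-out lists, 4 of 25 G2/M genes (with Smc4 and Cenpa) and 3 of 21 S genes (Rfc2, Fen1 and Gmnn) were lower, among them Dlgap5 (6.1, 10.2 and 8.3 CPM in γδ T cells and 11.5, 14.7 and 23.3 CPM in CD8 T cells, -1.12 ± 0.32 SE, adjusted p = 0.0247) and Cks1b (18.7, 28.5 and 54.1 CPM in γδ T cells and 48, 56.9 and 95.7 CPM in CD8 T cells, -1.10 ± 0.33 SE, adjusted p = 0.0324), and Cks2 was higher.

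The red library had higher member levels than the green libraries in NK and CD8 T cells and lower levels in Tregs. Color, time in the tumor and library cannot be told apart here. In CD4 T cells the higher red levels were lost without cells of more than 1 gate. They stayed without the cells of highest doublet scores. In γδ T cells 10 of 25 G2/M members were higher while the S members were near the share of all genes. With 1 red library there is no test, so a member was counted when red differed from both green libraries in the same direction by more than the green libraries differed from each other. In CD8 T cells 18 of 25 G2/M and 13 of 20 S members were higher in red and none lower, where 21.7% of all genes were higher and 25.2% lower. In NK cells 9 and 14 were higher and none lower, against 18.7% and 38.9% of all genes, and in CD4 T cells 12 and 14 were higher and none lower, against 22.9% in each direction. In γδ T cells 10 G2/M and 3 of 20 S members were higher and Kif23 was lower, against 15.9% and 14.9% of all genes, so the S count was near the background. In Tregs none was higher and 11 G2/M and 17 S members were lower, against 21.4% and 16.8%. The size differed too. The G2/M sum in red was 4.62 and 2.21 times that of green 1 and green 2 in NK cells, 2.21 and 1.66 times in CD8 T cells, 2.50 and 1.57 times in CD4 T cells, 2.27 and 1.54 times in γδ T cells, and 0.884 and 0.854 times in Tregs. With cells of more than 1 gate left out, the red CD4 T sums lay between the green ones, at 381, 822 and 734 CPM for G2/M and 749, 956 and 819 CPM for S. Then 8 G2/M and 2 S members were above both green values in red, where 24 and 18 were with those cells kept. Without the cells of highest doublet scores the CD4 T G2/M sums were 438, 729 and 1293 CPM. Then 24 G2/M and 18 S members were above both green values in red. The share of all genes above both green values is not given. With cells of more than 1 gate kept, the CD8 T list was mixed in CD4 T cells. Cd8a had 105, 215 and 419 CPM, Cd8b1 153, 241 and 472 CPM and Trac 732, 715 and 801 CPM. Gzmk was lowest in red, with 63.4, 60.5 and 31.4 CPM. Of the NK list, Prf1 (108, 176 and 550 CPM) and Klre1 were highest in red, and Klrb1c, Eomes and Klra8 were lowest in red. Prf1 also rose in Tregs, with 80.7, 145 and 242 CPM. The part of cells of more than 1 gate in the CD4 T result was not tested further. In γδ T cells the G2/M sums without cells of more than 1 gate gave red ratios of 4.14 and 3.07, and in Tregs 0.833 and 0.803. The S sum was 2.00 and 1.59 times as high in NK cells and 0.782 and 0.768 times in Tregs. The green libraries themselves differed, with green 2 at 2.09 times green 1 for the NK G2/M sum and at 1.03 times for the Treg sum. In NK cells the median of all genes lay at -0.19 and -0.18 (log2, red over green 1 and green 2), and with TMM scaling, which brings these medians to -0.04 and -0.02, 13 G2/M and 15 S members were higher and none lower, against 26.7% and 28.9% of all genes. Red cells were also deeper in NK and CD8 T cells (medians of 17234 and 14342 UMIs) and shallower in Tregs (8324, against 10686 and 11113). After each cell was thinned to 3000 UMIs, red lay on the same side of both green libraries in all 5 types for both sums. The red over green G2/M ratios were then 4.91 and 2.38 in NK cells, 2.90 and 1.95 in CD8 T cells and 0.859 and 0.808 in Tregs. The part of depth was not tested further. With no upper limit on genes per cell the red Treg G2/M sum (1534 CPM) lay between the green sums (1503 and 1680.3), while the S sum (1328) stayed below both (1616 and 1681).

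**Figure D5:**
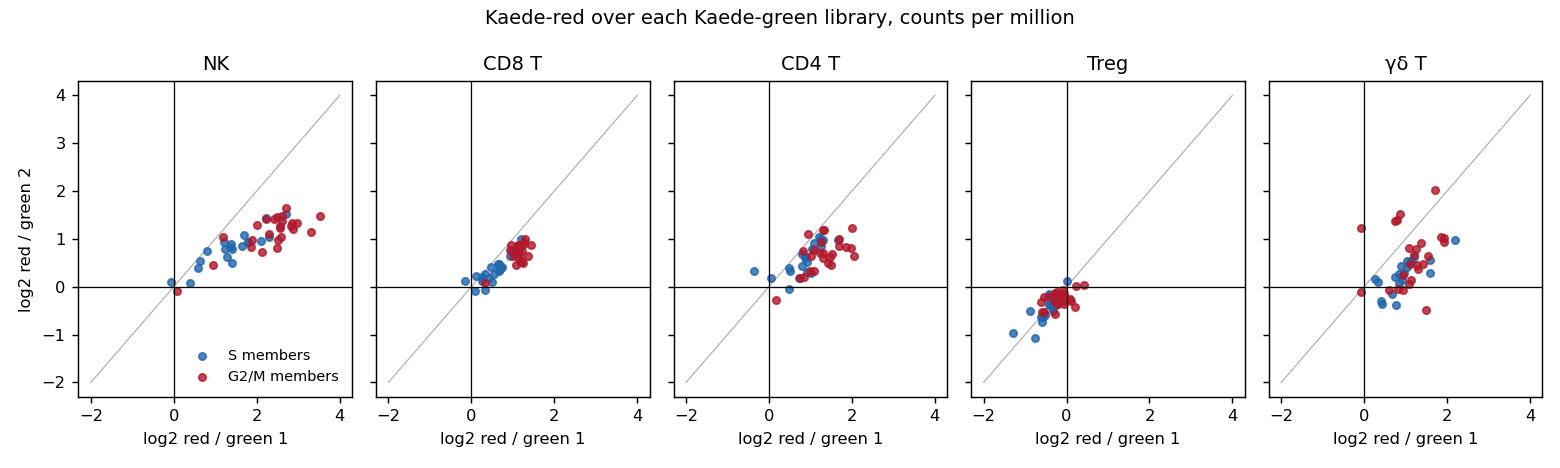
Log2 ratio of red to green 1 (x axis) and of red to green 2 (y axis) for each member in each type, from CPM with 0.5 UMIs added, S members in blue and G2/M members in red, with the diagonal in gray. NK points reach the highest x values, and in Tregs nearly all points lie in the lower left field.

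Genes outside the list also differed between cells above and below the limit. Within each type, cells above 5 per 10000 UMIs in S or G2/M members were compared with cells below, reading only genes that are not members. Each type had 6 sums, with the library as a block and 2 residual degrees of freedom in edgeR. The cells were chosen by genes that vary with these, so the counts describe the gate and do not test it. The same holds for the regulators and for the limit of 20. Of the held-out S genes tested, 21 of 21 were higher in CD8 T cells, 21 of 21 in Tregs, 19 of 21 in NK cells, 16 of 20 in CD4 T cells and 14 of 18 in γδ T cells, where 16.2%, 17.9%, 8.96%, 5.08% and 3.16% of all genes tested were higher. Of the held-out G2/M genes, 24 of 25, 24 of 24, 19 of 23, 17 of 19 and 9 of 14 were higher, and none of either list was lower, where 5.52% (NK), 15.9% (CD8 T), 2.21% (CD4 T), 12.1% (Treg) and 1.02% (γδ T) of all genes tested were. With no replicate block, none of the 11436 genes tested passed in NK cells, held-out or not. Without green 2, 10 S and 12 G2/M held-out genes passed in NK cells and 7 S genes in γδ T cells, where without the red library 9 S genes did. Of all genes without green 2, 219 of 11471 were higher in NK cells and 164 of 7911 in γδ T cells. Without the red library 155 of 7620 were higher in γδ T cells. Of the 38 regulators, Ccne1, Ccne2, Cdk4 and Fbxo5 were higher in 5 of 5 types in this comparison, and Btg1 was lower in 5. Btg2, Ccnd2 and Cdkn1b were lower in 3 types, Ccnd1 in 2 and Tob1, Cdkn1a, Cdkn2b and Myc in 1. Myc was also higher in 1 type. The share of all genes called in the same direction in all 5 types is not given, at this limit or at 20. At a limit of 20 per 10000 G2/M UMIs, chosen after the data were seen, the cells above were 5, 5 and 15 γδ T cells, 12, 27 and 24 CD4 T cells and 24 to 699 cells in the other groups, and more regulators were called in the same direction in all 5 types. Btg1, Btg2 and Cdkn1b, which hold cells out of the cycle, were lower in 5 of 5 types, and Ccnd2 and Tob1 in 4. At this limit 10.2%, 19.3%, 8.76%, 21% and 8.43% of all genes tested were higher in NK, CD8 T, CD4 T, Treg and γδ T cells, and 9.66%, 17.9%, 5.52%, 18.6% and 7.53% were lower. In total 13 regulators were higher in 5 of 5 types: the E cyclins Ccne1 and Ccne2, Cdk4, the inhibitor Cdkn2c, the factors E2f1, E2f2, E2f3, E2f7, E2f8 and Mybl2, the anaphase-promoting complex inhibitor Fbxo5, and the Cdk1 kinases Wee1 and Pkmyt1. Foxm1 was higher in 4 types, and Cdkn2a in CD8 T cells and Tregs. In CD8 T cells above the limit, E2f8 had 25.5, 39.6 and 37 CPM against 1.06, 0.674 and 1.1 in the other CD8 T cells. In CD8 T cells above the limit, Foxm1 had 28.3, 25.6 and 27.4 CPM against 1.1, 1.27 and 1.22 in the other CD8 T cells. In CD8 T cells above the limit, Ccnd2 had 182, 187 and 148 CPM against 433, 422 and 326 in the other CD8 T cells. Ccnd2 was lower above the limit in every library. In CD8 T cells above the limit, Cdkn1b had 58.5, 79.1 and 76 CPM against 125, 124 and 98.4 in the other CD8 T cells.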

How the data were processed

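Single-cell RNA (10x Genomics) of 2 Kaede-green libraries and 1 Kaede-red library was measured. The authors deposited raw UMI counts per gene and cell. The labels name Cell Ranger 6.1.2 and the matrix headers 6.0.1, with mm10. A cell entered when it showed 1000 to 6000 genes and its mitochondrial share lay below 7.5%, no doublet caller was applied in the main result, and types were gated on raw UMIs. Counts were summed per type and library (15 sums) and tested with edgeR 4.0.16 in R 4.3.3 (quasi-likelihood, TMM, library as a block, 8 residual degrees of freedom), with Benjamini-Hochberg adjustment over all genes tested. Types of the same library share a library by construction, so the block follows the design. Shares and ratios were tested by exact permutation of type labels within libraries, with the variance of the type means as the statistic. P-values measure only how far differences between groups of cells varied over these 3 libraries, with differences between whole libraries taken out. That spread may be technical in part. With 1 red library it also holds any change of a type with color, as seen in Tregs. Counting intervals cover counting error only.

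Members and lists were chosen with earlier results of these data known. Named genes were a fixed set of members and regulators plus, for each comparison, the 3 members with the highest and the 3 with the lowest log2 fold change. Alternatives were another scaling, DESeq2 1.42.0, no filter on low counts, no block, each library left out, other cell limits, cells of more than 1 gate or with the highest doublet scores left out, and gates on cells thinned to 3000 UMIs. The edgeR fit was checked on simulated data for CD8 T minus NK only, where the library effect of a gene was shared by all types. That check does not cover types that change differently between libraries, as Tregs did here. Promoter sequences are from RefSeq.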

Additional observations from a re-analysis of the deposited data

Results flagged for a closer look

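Tregs moved against the other types between the colors, and the difference was not tested. The red value minus the mean of the green values was -2.43 percentage points for the share of Tregs above 5 per 10000 G2/M UMIs, -200.1 CPM for the summed G2/M members and -352 CPM for the summed S members, while NK, CD8 T, CD4 T and γδ T cells had higher red than green values. Without cells that meet more than 1 gate the red CD4 T values were no longer above both green ones (G2/M shares of 6.55%, 16.6% and 13.9%, and G2/M sums of 381, 822 and 734 CPM in green 1, green 2 and red). Without the cells of highest doublet scores the red CD4 T G2/M sum stayed above both (438, 729 and 1293 CPM). With no upper limit on genes per cell the red Treg G2/M sum (1534 CPM) lay between the green sums (1503 and 1680.3 CPM), and the S sum (1328 CPM) stayed below both (1616 and 1681 CPM).

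With all gated cells kept and none thinned, Tregs lay above CD4 T cells in both green libraries and below them in red. The red difference (Treg minus CD4 T) was -0.407 percentage points of cells above the G2/M limit, -59.4 CPM for the summed G2/M members and -214 CPM for the summed S members. This difference between the colors was not tested either, since there was 1 red library. The direction in red turned without cells that meet more than 1 gate, which were 33.2% of the red CD4 T cells: Tregs then lay above CD4 T cells with G2/M shares of 19.9% and 13.9%, G2/M sums of 1319 and 734 CPM and S sums of 1246 and 819 CPM. With no upper limit on genes per cell the difference turned for the G2/M sum (69.04 CPM) and not for the S sum (-149 CPM), and without the cells of highest doublet scores it stayed below 0 (-369.7 and -405 CPM). With each cell thinned to 3000 UMIs the difference was 43.02 CPM for the G2/M sum and -7.12 CPM for the S sum.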

How the results depend on the processing

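Counts of called members moved with the processing, and the cause was not tested. The shares of all genes called under the same alternatives are not set beside these counts, so the counts are a description. For CD8 T minus NK, S counts were 11 with no filter on low counts and 0 with no replicate block, and the G2/M count was 0 with no replicate block. For CD8 T minus CD4 T, S and G2/M counts were 9 and 6 with no filter, 9 and 3 without cells of more than 1 gate and 3 and 3 with gates on thinned cells. For Treg minus CD4 T, the S count was 1 with DESeq2 size factors, 5 with DESeq2's Wald test, 11 with no filter and 12 without cells of more than 1 gate, and the G2/M count 7 with the Wald test, 14 with no filter, 0 with no replicate block, 4 with no upper limit on genes, 11 without cells of more than 1 gate and 0 with thinned gates. For γδ T minus CD8 T, the S count was 5 with the Wald test, 16 with no filter, 0 with no replicate block, 16 without cells of more than 1 gate and 11 with thinned gates, and the G2/M count 8, 21, 1, 23 and 15, with 10 for no upper limit on genes and 1 without the highest doublet scores. Leaving out 1 library gave S and G2/M counts of 0 to 18 and 0 to 24 (CD8 T minus NK), 0 to 14 and 0 to 5 (CD8 T minus CD4 T), 0 to 18 and 0 to 21 (Treg minus CD4 T) and 0 to 14 and 0 to 8 (γδ T minus CD8 T). The exact permutation p for differences between types in the G2/M share was 0.0499 with thinned cells, 0.0247 without Stmn1 and Spc24 and 0.0483 with no upper limit. This exact permutation p was 0.187 with thinned gates, 0.0833 without the highest doublet scores and 0.0647 without cells of more than 1 gate. It was 0.0593 with no mitochondrial limit, and 0.0553 and 0.0505 at limits of 10 and 20 per 10000. With thinned gates the exact permutation p for S or G2/M was 0.0199 and for S 0.0484. Leaving out 1 library gave permutation p of 0.125 to 0.575 (S or G2/M), 0.075 to 0.533 (S), 0.0333 to 0.35 (G2/M) and 0.0333 to 0.0667 for the ratio of G2/M to S UMIs. For cells above against below, held-out S and G2/M counts with no replicate block were 0 and 0 in NK, 10 and 11 in CD4 T and 5 and 5 in γδ T cells, with the Wald test 9 and 10 in CD4 T and 2 and 3 in γδ T cells, and at the limit of 20 the γδ T G2/M count was 18. No gene at all passed in NK cells with no replicate block. Leaving out 1 library gave 10 to 21 and 12 to 24 in NK, 21 to 21 and 24 to 25 in CD8 T, 13 to 17 and 14 to 20 in CD4 T, 21 to 21 and 23 to 24 in Tregs and 7 to 11 and 6 to 11 in γδ T cells. Ung reversed in γδ T minus CD8 T cells with thinned gates (1.53, adjusted p = 0.0320). Of 2128 results for single members under an alternative, 1716 kept direction and call, 309 gained a call, 102 lost it and 1 reversed. The γδ T sums rest on 193 to 335 cells and the CD4 T sums on 313 to 564 cells in a library. The comparisons of the colors, and of Tregs with CD4 T cells in each library, under other choices of cells were added after the data were seen.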
